A study of Mus musculus with 9 samples.

Results

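The genes of oxidative phosphorylation were followed in the mouse striatum, with the genes carried by mitochondrial DNA set against those carried by the nuclear chromosomes. They were chosen by symbol: the protein-coding genes with the prefix mt- (mt-Nd, mt-Co, mt-Atp and mt-Cytb), and the nuclear genes starting with Nduf, Uqcr, Cox4 to Cox8 or Atp5, together with Sdha, Sdhb, Sdhc and Sdhd. This gave 105 of the 15464 genes in the table, 13 of them mitochondrially encoded and 92 nuclear. All 13 mitochondrially encoded and 91 of the 92 nuclear genes passed the filter on low values (at least 10 normalized counts in at least 3 libraries). The gene left out was Cox8b, a heart and muscle form of a complex IV subunit, at 0 to 5.33 normalized counts. The nuclear set held 36 complex I subunits with 8 factors named for complex I assembly, 4 complex II subunits, 8 complex III subunits, 11 complex IV subunits with 7 tissue isoforms and Cox7a2l, and 16 complex V subunits with Atp5s.

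Oxidative phosphorylation takes place in the inner mitochondrial membrane. Complexes I to IV pass electrons from NADH and succinate to oxygen and most of them pump protons, and complex V, the ATP synthase, uses the proton gradient to make ATP. Complex II is built from nuclear genes alone, while every other complex joins subunits made inside the mitochondrion with subunits imported from the cytosol, so that a working chain needs transcripts from both genomes. Neurons are known for a high and steady demand for this ATP, much of it for ion pumping.

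The RNA came from the dissected striatum of male Shank3B wild-type (WT), heterozygous (HET) and knock-out (KO) littermates aged 10 to 12 weeks on the C57BL/6J strain background, with 3 mice of each genotype and 1 mouse per library. The Shank3B allele removes part of Shank3, which encodes a scaffold of excitatory synapses, in all cells from the germ line on, and no group received an agent. The p-values below therefore measure the spread between mice. Poly(A)-selected, stranded libraries were sequenced, and the values are normalized counts per gene.

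The deposited normalized counts summed to between 30830020 and 33790296 per library, but the depth before normalization is unknown. Whole-gene Shank3, which includes exons outside the targeted part and so checks no label, was 7355 ± 1390 in WT, 7574 ± 476 in HET and 10538 ± 283 in KO (mean ± SD, n = 3). All 9 medium spiny neuron markers, which define striatal tissue, were measured, with sums of 65471 to 149126 per library, while the 4 choroid plexus markers in the table summed to 14.2 to 58.1. HET3 and KO3 (the libraries numbered 3 of HET and KO) stood apart on the first principal component of all tested genes other than the oxidative phosphorylation genes, at 33.3 and 34.1 against -17.0 to 1.45 in the other 7 libraries. That component held 33.3% of the variance. The fitted medians and the fold changes that move most are given with and without them.

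The mitochondrially encoded genes were far more abundant per length than the nuclear ones. Divided by transcript length, they had a median level of 186797 normalized counts per kb (mean of 9 libraries), against 3007 for the 75 nuclear subunit genes. The level per kb was highest for mt-Co1, the catalytic core of complex IV, at a mean of 514252, followed by mt-Atp6 (447122), which carries the proton channel of the ATP synthase, and mt-Co2 (385930), which takes electrons from cytochrome c. The lowest was mt-Nd6 at 1310, below the nuclear median. It is also the only member read from the opposite strand of mitochondrial DNA to the other 12, at chrM:13552-14070. The libraries were poly(A)-selected and tails were not measured, so the count of mt-Nd6 may not reflect its level in the tissue. The remaining complex I genes of mitochondrial DNA lay between 40165 (mt-Nd3) and 190441 (mt-Nd4).

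**Figure D1:**
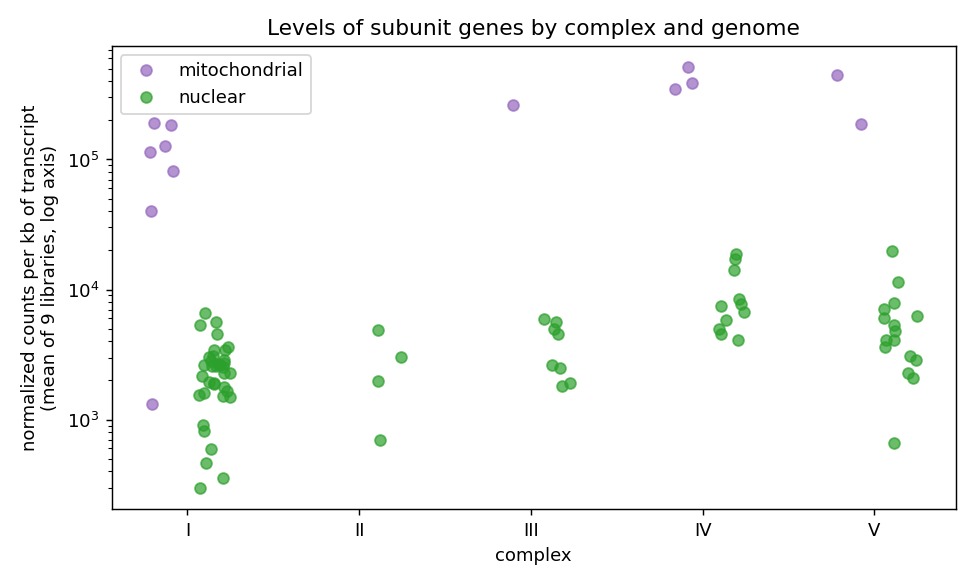
Normalized counts per kb of transcript (log axis, mean of 9 libraries) for subunit genes of complexes I to V, with 1 point a gene, mitochondrially encoded genes in purple and nuclear genes in green. Apart from mt-Nd6 at 1310, the mitochondrially encoded genes lie above every nuclear subunit, the highest of which is Atp5b at 19726.

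Among nuclear subunits the median level per kb was 2422 in complex I, 2503 in complex II, 3591 in complex III, 7477 in complex IV and 4455 in complex V. Atp5b, the catalytic beta subunit of the ATP synthase, was the most abundant nuclear gene of complex V in all 9 libraries, with a median of 16828 per kb against 10660 for the next, Atp5a1. Cox4i1, the ubiquitous form of a regulatory complex IV subunit, led its complex at a median of 18171 per kb. It exceeded Cox8a, the next gene (17280), in 7 of 9 libraries. Sdha, the flavoprotein that oxidizes succinate, led complex II in all 9 libraries at a median of 4407 per kb, and Sdhc, a membrane anchor, was lowest at 716. In complex III the ends of the order were not separated from their neighbours, since Uqcr10 was above Uqcr11 in 5 libraries and the Rieske iron-sulfur protein gene Uqcrfs1 was below Uqcrq in 5. In complex I, Ndufb8 was highest at a median of 5979 per kb, but Ndufb10 takes that place if the longest transcript is used for the length. Ndufb2 was lowest at 304. The lowest nuclear gene of complex V was Atp5g1 at 689, and of complex IV Cox7c at 4451, which was below Cox7a2 in 4 libraries. Ndufb2 and Atp5g1 were divided by lengths of 4371 and 4715 nt, beside a median of 861 nt over the 91 nuclear genes. Their low places therefore rest on the long transcripts chosen. The 10 assembly factors had a median of 417 per kb.

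The tissue isoforms were rare beside the ubiquitous forms. In normalized counts per kb, the ubiquitous form exceeded its partner by a median of 343 times for Cox4i1 over Cox4i2, the lung form. The median was 76.5 times for Cox6a1 over Cox6a2, the heart and muscle form. The median ratio was 135 for Cox6b1 over the testis form Cox6b2, 117 for Cox7a2 over the muscle form Cox7a1, and 126 for Ndufa4 over its paralog Ndufa4l2. The smallest of these ratios in any library was 48.1 (Cox6a1 over Cox6a2).

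Summed over genes, the mitochondrially encoded transcripts took 8.89%, 9.72% and 9.25% of all normalized counts in WT1 to WT3, 9.25%, 9.48% and 6.02% in HET1 to HET3, and 9.42%, 8.56% and 6.64% in KO1 to KO3. HET3 and KO3 were thus below every other library, and the remaining HET and KO libraries overlapped WT. Summed, the nuclear genes went the other way in the same libraries. They took 0.963%, 0.988% and 0.958% in WT, 0.977%, 1.03% and 1.13% in HET, and 0.982%, 0.946% and 1.07% in KO, with HET3 and KO3 above all others. The typical nuclear gene did not rise. Over the 91 tested nuclear genes, the median log2 difference from the other 7 libraries was -0.063 in HET3 and -0.0044 in KO3. The ratio of the mitochondrial sum to the nuclear sum lay between 9.06 and 9.84 in 7 libraries and was 5.32 in HET3 and 6.19 in KO3.

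**Figure D2:**
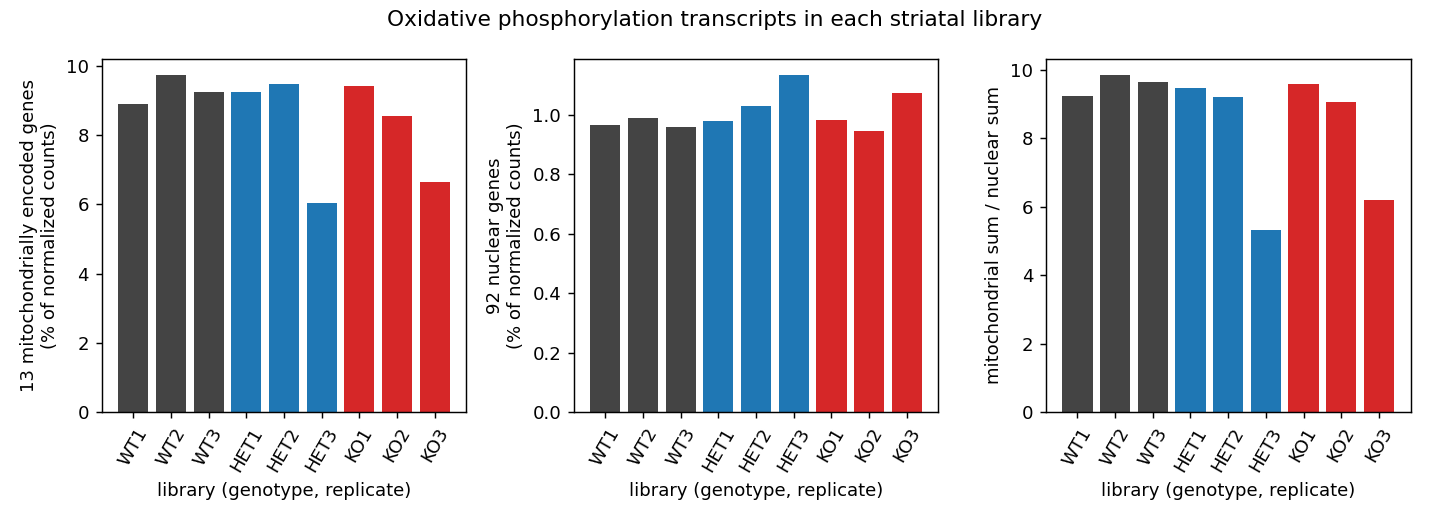
Share of all normalized counts in the 13 mitochondrially encoded genes (left) and the 92 nuclear genes (middle), in percent, and the ratio of the sums (right), with 1 bar a library and WT in grey, HET in blue and KO in red. HET3 and KO3 are lowest on the left (6.02% and 6.64%) and highest in the middle (1.13% and 1.07%).

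By genotype the ratio was 9.57 ± 0.310 in WT, 8.0 ± 2.32 in HET and 8.28 ± 1.83 in KO (mean ± SD, n = 3), so the differences were smaller than the spread in the mutant groups. On the log2 scale the ratio differed from WT by -0.31 in HET and -0.23 in KO, and KO differed from HET by 0.070. Without HET3 and KO3 these differences were -0.035, -0.038 and -0.0027. In bulk tissue, fewer cells of a type and less RNA per cell cannot be told apart.

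No oxidative phosphorylation gene passed the test between genotypes. In the limma test on log2(normalized count + 1) with Benjamini-Hochberg adjustment, 0 of 14239 genes (0%) passed an adjusted p of 0.05 in HET against WT, in KO against WT or in KO against HET. At an unadjusted p under 0.05 the counts over all genes were 158 (1.11%), 117 (0.822%) and 186 (1.31%), and 0 of the 13 mitochondrially encoded and 0 of the 91 nuclear genes were among them in each comparison. Each share is below what a threshold of 0.05 gives without any differences, so the limma test was conservative here. The paper used DESeq2 with an empirically estimated null on the same mice. It called a few genes in HET and in KO, Shank3 among them in KO. HET and KO were compared with the same 3 WT mice, so these comparisons are not independent of each other.

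Against WT, 11 of 13 mitochondrially encoded genes had a fitted log2FC (log2 fold change, on the log2(value + 1) scale) below 0 in HET and 11 of 13 in KO. The median was -0.22 in HET and -0.24 in KO, beside -0.0027 and 0.0047 over all genes tested. The median over these genes had an SD of 0.32 between replicates of a genotype, larger than either difference. Without HET3 and KO3 the medians were -0.021 in HET, with 7 of 13 below 0, and -0.067 in KO, with 11 of 13 below 0. KO against HET gave a median of -0.0014, whose sign depended on the scaling.

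Among the 91 nuclear genes, 54 were above 0 and 37 below in HET, with a median of 0.032, and 40 were above and 51 below in KO, with a median of -0.028. The KO median turned to 0.012 when each library's trend with transcript length and GC content was removed. In KO against HET 77 of 91 were below 0, with a median of -0.052, and the median over the nuclear genes had an SD of 0.054 between replicates of a genotype. Without HET3 and KO3, 84 of 91 were below 0 and the median was -0.072. The direction was seen in 30 of 36 complex I, 4 of 4 complex II, 6 of 8 complex III, 11 of 11 complex IV and 13 of 16 complex V subunits with all libraries, and in 34, 3, 8, 11 and 15 without HET3 and KO3. The genes share libraries. HET2 held the highest value for 31 of the 91 nuclear genes (34.1%), beside 12.1% of all genes tested. KO2 held the lowest for 21 (23.1%), beside 8.62%. HET3 held the highest for 30 and the lowest for 31, beside 20.4% and 19.3% of all genes tested. Leaving out HET2 moved the median of KO against HET to -0.011.

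**Figure D3:**
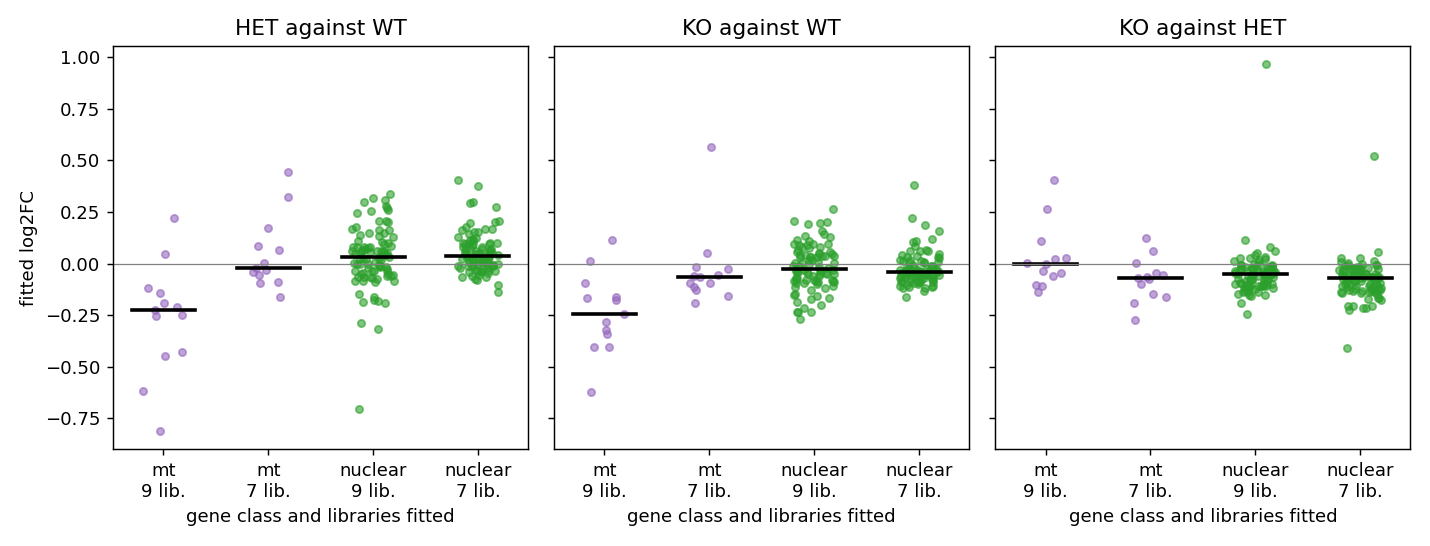
Fitted log2FC of each gene in the 3 comparisons, for the 13 mitochondrially encoded (purple) and 91 nuclear (green) genes, from all 9 libraries and from the 7 libraries other than HET3 and KO3. Black lines are medians, and the mitochondrial medians of -0.22 in HET and -0.24 in KO move to -0.021 and -0.067 with 7 libraries.

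The markers of medium spiny neurons, the main cell type of striatum, had a log2FC below 0 in KO against WT for 9 of 9 genes, with a median of -0.36 and none past the test, and for 7 of 9 without HET3 and KO3, with a median of -0.13. In KO against HET, where most nuclear genes were below 0, so were 9 of 9 of these markers (median -0.38) and 6 of 6 oligodendrocyte markers (median -0.31), while 5 of 5 cortical excitatory neuron markers were above 0 (median 0.13). Without HET3 and KO3 the medians in that comparison were -0.17, -0.046 and -0.0093, with 8 of 9, 5 of 6 and 3 of 5 markers below 0. With all libraries, 3 of 3 blood (median -0.40), 3 of 3 endothelial (-0.14) and 4 of 5 microglia markers (-0.018) were also below 0 there. So were 3 of 5 astrocyte (-0.019), 3 of 5 parvalbumin interneuron (-0.049) and 1 of 2 choroid plexus markers (0.088). The sums of the medium spiny neuron markers ranged from 74906 to 149126 in WT, 103208 to 132488 in HET and 65471 to 110720 in KO. The 6 oligodendrocyte markers were all above 0 in HET, with sums of 154380 to 253632 in WT, 216710 to 245573 in HET and 132901 to 237527 in KO. No medium spiny neuron or oligodendrocyte marker was at 0 in all libraries, and the part of cell composition in the values above was not tested.

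Few genes had genotype groups that did not overlap. In HET, Ndufs1 alone of the 104 genes was lower than WT in every library, where 2.19% of all genes were lower and 2.25% higher without overlap. In KO, Ndufs1, Atp5g1, Ndufaf1, mt-Nd4l and mt-Nd5 were lower and none was higher, where the shares over all genes were 2.51% and 2.02%. In KO against HET none was separated, beside 2.25% higher and 2.19% lower over all genes.

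Ndufs1 (chr1:63143596-63176833, minus strand, GRCm38) encodes the largest iron-sulfur subunit of complex I. It was at 4440, 4327 and 4432 normalized counts in WT, 4123, 4225 and 4044 in HET, and 4067, 4218 and 4153 in KO. Every mutant library was thus below the lowest WT library, within a narrow range, and Ndufs1 had the second smallest SD over the 9 libraries of the genes tested here. The log2FC was -0.091 ± 0.073 (SE) in HET and -0.086 ± 0.073 in KO, with limma adjusted p of 0.999 in both. In the exact two-sided permutation test over mice p was 0.1 for each, the smallest that 3 against 3 allows.

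Atp5g1 (chr11:96068852-96075670, minus strand), which with Atp5g2 and Atp5g3 encodes the c subunit of the rotating ring of the ATP synthase, was at 3299, 3361 and 3277 in WT, 3248, 3666 and 2238 in HET, and 2964, 3184 and 2546 in KO. KO2 lay nearest to WT, and KO1 and KO3 further below. The log2FC in KO was -0.20 ± 0.16 (SE), with a limma adjusted p of 0.999, and -0.11 without KO3. Ndufaf1, a complex I assembly factor, was at 536, 461 and 470 in WT, 443, 563 and 320 in HET, and 460.5, 441 and 388 in KO, where KO1 missed the lowest WT value by less than 1 count.

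Among mitochondrially encoded genes the smallest unadjusted p in HET and in KO belonged to mt-Nd4l, a membrane subunit of complex I. It was at 43937, 46781 and 43227 in WT, 43235, 40390 and 20798 in HET, and 39027, 39045 and 25061 in KO. All KO values lay below WT, HET1 lay within the WT range, and HET3 and KO3 were lowest. The log2FC was -0.43 ± 0.27 (SE) in HET and -0.41 ± 0.27 in KO (limma adjusted p 0.999 in both), and -0.095 and -0.19 without HET3 and KO3. The other separated gene, mt-Nd5, a proton-pumping subunit, was at 148156, 182009 and 158605 in WT, 148266, 141962 and 136508 in HET, and 147261, 143829 and 143964 in KO. It differed from mt-Nd4l in that HET3 and KO3 were close to their own groups, and its log2FC in KO was -0.16 ± 0.16 with all libraries and -0.16 without HET3 and KO3.

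The other nuclear genes with the smallest unadjusted p did not pass the test either. In HET they were Ndufa2 (log2FC 0.26 ± 0.17, SE), Ndufa10 (0.30 ± 0.19) and Atp5g2 (-0.32 ± 0.22), and in KO Ndufv3 (-0.16 ± 0.14), all with limma adjusted p of 0.999. Ndufa2, Ndufa10 and Ndufv3 encode accessory subunits of complex I. Without HET3, Ndufa2 moved to 0.074, Ndufa10 to 0.17 and Atp5g2 to -0.060, and without KO3 Ndufv3 moved to -0.046. In KO against HET they were Cox7b2, Cox8a (-0.14 ± 0.11) and Ndufb6 (-0.11 ± 0.11), with mt-Co3 (0.27 ± 0.34) as the mitochondrially encoded gene, all with limma adjusted p of 1.00. Cox8a, a ubiquitous complex IV subunit, moved to -0.037 without KO2, Ndufb6, an accessory complex I subunit, to -0.043 without HET2, and mt-Co3 to 0.10 without HET3. Cox7b2, a testis form of a complex IV subunit, was at 1.43 to 11.8 normalized counts, near the filter, so its log2FC of 0.97 ± 0.59 rests on very low values. It was 0.40 without HET3 and 1.57 without HET1.

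In the fit without HET3 and KO3, Ndufb5, Ndufb4 and Atp5mpl of the 91 nuclear genes had an unadjusted p under 0.05, all higher in HET than in WT, where 1.93% of all genes did. In that fit 0 of the 104 genes did in KO against WT or in KO against HET, beside 1.54% and 1.59% of all genes. Ndufb5 and Ndufb4 are accessory complex I subunits and Atp5mpl is a small protein of the ATP synthase. The log2FC was 0.30 for Ndufb5 and 0.29 for Ndufb4 and 0.28 for Atp5mpl with limma adjusted p of 1.00, beside -0.048, -0.19 and -0.011 with all libraries. They were named after their values were seen.

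The spread over libraries was widest for the mitochondrially encoded genes. The median SD of log2 values over the 9 libraries was 0.37 for mitochondrially encoded, 0.17 for nuclear and 0.18 for all genes tested, and 0.12, 0.095 and 0.13 without HET3 and KO3. The 5 genes with the largest SD were mt-Atp8, mt-Co2, mt-Nd3, Cox7b2 and mt-Nd6. The 5 with the smallest were the assembly factor gene Ndufaf7, Ndufs1, Ndufb9, Ndufa4 and Ndufa11, all nuclear.

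Of the 13 mitochondrially encoded genes, 9 were lower in both HET3 and KO3 than in each of the other 7 libraries, and 0 were higher, where 16.4% of all genes were below and 19.2% above. Set against the median of the other 7 libraries, mt-Co2, mt-Atp8 and mt-Nd3 differed most in HET3, and mt-Atp8, mt-Nd3 and mt-Nd6 in KO3. Mt-Atp8, a small membrane subunit of the ATP synthase, was at 53429, 38240 and 42227 normalized counts in WT, 49644, 49888 and 9610 in HET, and 46648, 40805 and 12468 in KO. The values of HET3 and KO3 were far below the rest, by -2.28 and -1.90 on the log2 scale, and the other 7 did not separate by genotype.

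Mt-Co2 was at 264492, 351659 and 321723 in WT, 307811, 344016 and 52385 in HET, and 293417, 287656 and 152629 in KO. Here HET3 was much lower than KO3, at -2.55 and -1.01 from the median of the other 7. Mt-Nd3, a membrane subunit of complex I, was at 14714, 15368 and 15216 in WT, 15649, 22770 and 3808 in HET, and 16651, 14654 and 6969 in KO. HET2 was the highest library for this gene and HET3 the lowest, both of them heterozygous mice.

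Longer genes were less displaced. Mt-Co1 was at 852375, 867475 and 831473 in WT, 849116, 827059 and 649068 in HET, and 891280, 739390 and 643442 in KO, which put HET3 and KO3 at -0.39 and -0.40. Mt-Cytb, the cytochrome b of complex III, stood at -0.28 and -0.30, and mt-Nd5 at -0.12 and -0.041. Mt-Nd4 was not lower, at 0.27 and -0.00027. Over the 13 genes, Spearman's rho between transcript length and the difference from the other libraries was 0.75 in HET3 and 0.76 in KO3, where the genes share their libraries and 1 molecule. Over the 91 nuclear genes it was 0.18 and 0.16.

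**Figure D4:**
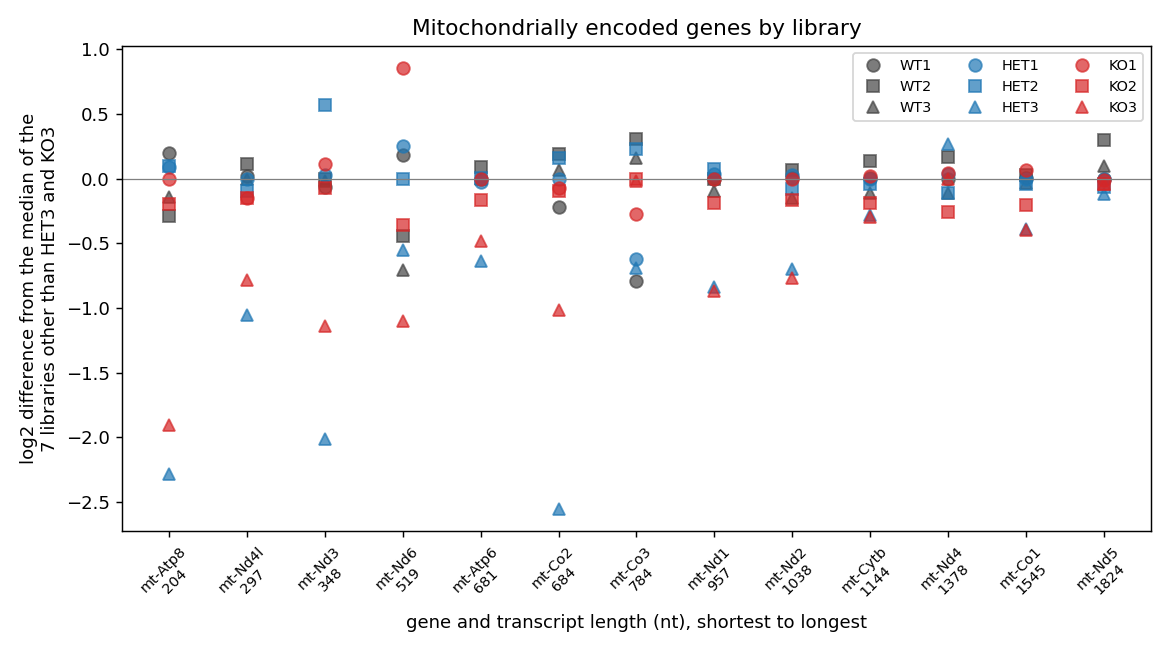
Log2 difference of each library from the median of the 7 libraries other than HET3 and KO3, for the 13 mitochondrially encoded genes ordered by transcript length (nt), with 1 point a library, WT in grey, HET in blue and KO in red, and circles, squares and triangles for libraries numbered 1, 2 and 3. The blue and red triangles (HET3 and KO3) lie at -2.28 and -1.90 for mt-Atp8 and near 0 for mt-Nd5.

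Neighbouring genes of mitochondrial DNA differed in the same libraries. Mt-Atp8 and mt-Atp6 are read as 1 messenger in which the reading frames overlap by 43 bases, and mt-Nd4l and mt-Nd4 overlap by 7. The junctions are shown because reads there can be assigned to either gene, so the split between partners is uncertain. They are given 5′ to 3′ on the plus strand of the GRCm38 mitochondrial sequence, with the overlap in capitals, at chrM:7897-7999 and chrM:10137-10203.
mt-Atp8 and mt-Atp6: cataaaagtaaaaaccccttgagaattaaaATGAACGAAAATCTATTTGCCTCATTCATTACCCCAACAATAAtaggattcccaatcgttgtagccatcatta
mt-Nd4l and mt-Nd4: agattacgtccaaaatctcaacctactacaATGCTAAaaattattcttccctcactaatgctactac

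The ratio of mt-Atp8 to mt-Atp6 in normalized counts was 0.109 to 0.162 in 7 libraries, 0.0452 in HET3 and 0.0528 in KO3. That of mt-Nd4l to mt-Nd4 was 0.146 to 0.179, and 0.0663 and 0.0963 in HET3 and KO3. In each case the shorter partner had the lower count in every library, and the ratio was smallest in HET3 and KO3. The ratio of mt-Co2 to mt-Co1, which do not overlap, was 0.310 to 0.416, 0.0807 in HET3 and 0.237 in KO3.

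Mt-Co3, a structural core subunit of complex IV, followed another pattern. It was at 172933, 369449 and 333348 in WT, 193920, 350932 and 185013 in HET, and 247615, 298837 and 295247 in KO. The library numbered 1 was the lowest of WT and of KO, and HET1 and HET3 were the low ones in HET. Against mt-Atp6, the gene just before it on the molecule, mt-Co3 was at 0.524, 0.597 and 0.750 in WT1, HET1 and KO1, and at 0.870 to 1.25 in the others. Mt-Nd6 was at 827, 536 and 446 in WT, 865, 727 and 496 in HET, and 1316, 567 and 338 in KO. KO1 was highest and KO3 lowest, so the extremes of this gene lay in the same genotype.

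The nuclear genes split in HET3 and KO3. Of 91, 34 were higher in both libraries than in each of the other 7 (37.4%) and 28 were lower (30.8%), where the shares over all genes were 19.2% and 16.4%. The difference from the other libraries had the same sign in HET3 and KO3 for 88 of 91 nuclear and 12 of 13 mitochondrially encoded genes. It ranged from -2.02 to 1.07 in HET3 and from -1.02 to 0.99 in KO3 over the nuclear genes. The same-sign share over all genes was not computed. HET3 and KO3 also stood apart together over the other genes, so the same-sign count cannot be called particular to oxidative phosphorylation.

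**Figure D5:**
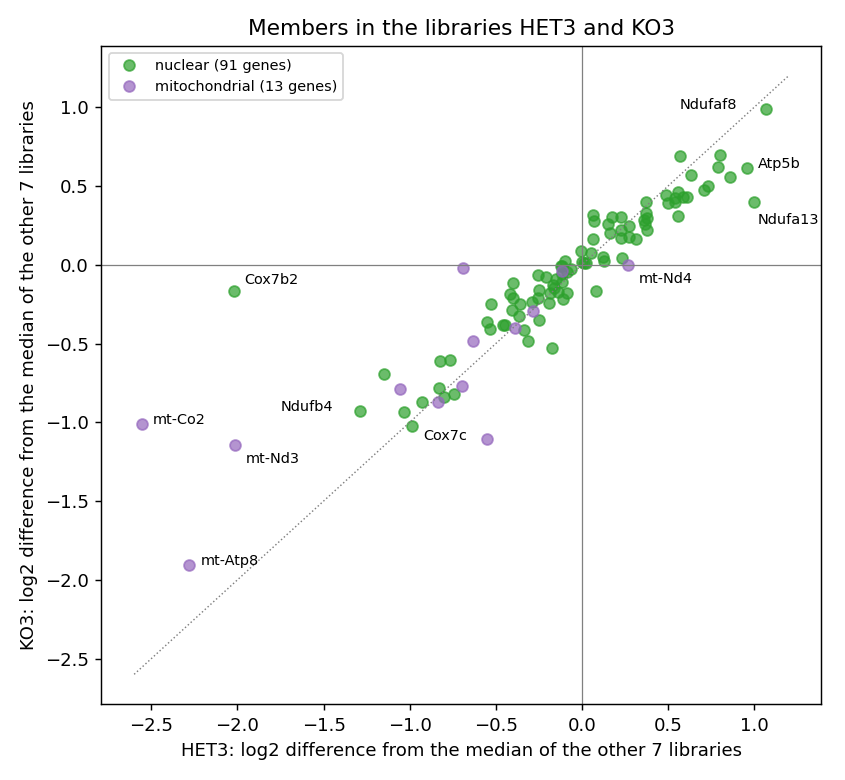
Log2 difference from the median of the other 7 libraries in HET3 (horizontal) and KO3 (vertical), with 1 point a gene, nuclear in green and mitochondrially encoded in purple, and a dotted line where both are equal. Nuclear genes spread on both sides of 0 along the line, while mt-Atp8, mt-Co2 and mt-Nd3 lie at -2.28, -2.55 and -2.01 in HET3.

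Subunits of the same complex lay on both sides. In complex V, 4 of the 5 genes of the F1 part were above (Atp5a1, Atp5b, Atp5c1 and Atp5d) and the fifth, Atp5e, was below. Of the other 11 subunits 3 were above and 5 below, among them Atp5g1, Atp5g2 and Atp5mpl. Atp5b (chr10:128083273-128090391, plus strand) was at 31423, 36784 and 32243 in WT, 31044, 34316 and 62273 in HET, and 30736, 32091 and 49245 in KO. Atp5e was at 1419, 1211 and 1159 in WT, 1407, 1479 and 806 in HET, and 1413, 1106 and 786 in KO. For these partners of the same F1 part, HET3 and KO3 were the extremes in opposite directions, and the other 7 libraries overlapped across genotypes.

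In complex IV, 6 of 11 subunits were above (Cox4i1, Cox5a, Cox5b, Cox6a1, Cox7a2 and Cox7b) and 3 below (Cox6b1, Cox6c and Cox7c). Cox7b was at 4201, 4757 and 3946 in WT, 4402, 4443 and 7690 in HET, and 4475, 3697 and 7145 in KO. Cox7c was at 2548, 2216 and 2317 in WT, 2514, 2917 and 1270 in HET, and 2521, 2404 and 1238 in KO. Both encode small membrane subunits of complex IV, and the libraries that were highest for Cox7b were lowest for Cox7c.

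In complex I, 14 of 36 subunits were above and 12 below. The genes above included Ndufa13 (1.00 in HET3 and 0.40 in KO3), Ndufa1 (0.86 and 0.56) and Ndufs7 (0.79 and 0.62), a core subunit that holds an iron-sulfur cluster. The genes below included Ndufb4 (-1.29 and -0.93), Ndufc2 (-1.15 and -0.69) and Ndufb5 (-0.83 and -0.78), accessory subunits of the membrane arm. The assembly factor gene Ndufaf8 had the largest positive difference of all 104 genes, 1.07 in HET3 and 0.99 in KO3. It was at 223, 322 and 247 in WT, 272, 216 and 520 in HET, and 271, 201 and 491 in KO, with HET3 and KO3 far above an otherwise overlapping set.

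In complexes II and III the pattern was the same. Sdha was at 12168, 13684 and 12780 in WT, 12536, 12477 and 20844 in HET, and 12985, 12468 and 17773 in KO, and Sdhd was also above, while Sdhc was below. Uqcrc1 and Uqcrc2, the core proteins of complex III, and Uqcr10 were above, and Uqcrb and Uqcrh below. Uqcrh, the hinge protein that binds cytochrome c1, was at 3210, 2644 and 2873 in WT, 3213, 3347 and 1522 in HET, and 3110, 2953 and 1630 in KO. HET3 and KO3 were again the extreme libraries, high for Sdha and low for Uqcrh.

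The nuclear genes above had a median transcript length of 898 nt and a median GC content of 52.0%, and those below 868 nt and 49.3%. Over the 91 nuclear genes, Spearman's rho of the difference with GC content was 0.27 in HET3 and 0.24 in KO3. Of the 16 nuclear genes of 1500 to 3000 nt 8 were above and 3 below, and of the 5 of 3000 nt or more 0 were above and 3 below. Over all 56 tested genes with transcripts under 500 nt, 44.6% were lower in both HET3 and KO3 and 16.1% higher, against 14.1% and 18.4% of the 7340 genes of 3000 nt or more. Of the 7 nuclear genes under 500 nt 3 were lower and 2 higher. The part of transcript length, RNA quality or library preparation in the values of HET3 and KO3 was not tested, as no measure of RNA quality was used here.

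Genes around oxidative phosphorylation were examined as lists, chosen with earlier results of these data known, and with all libraries 0 genes of any list had an unadjusted p under 0.05 in any comparison. The 13 genes of the tricarboxylic acid cycle, which feeds electrons to the chain, had log2FC above 0 for 12 in HET (median 0.055) and 9 in KO (median 0.039). Their sum was 101175 in HET3 and 99195 in KO3 and 74733 to 84974 in the others. HET3 and KO3 were thus highest here, as for the sum of the nuclear oxidative phosphorylation genes. Without them the medians turned to -0.045 in HET, with 4 of 13 above 0, and -0.067 in KO, with 1 of 13 above 0. Of 21 genes for maintenance and transcription of mitochondrial DNA, 10 were above 0 in HET (median -0.016) and 8 in KO (median -0.051), with sums of 11339 to 12195 per library. Of 19 genes for processing and stability of mitochondrial RNA, 9 were above 0 in HET (median -0.013) and 9 in KO (median -0.016), with sums of 18368 to 20548. The 15 regulators of nuclear oxidative phosphorylation genes, such as Ppargc1a and Nrf1, had 8 above 0 in HET and 8 in KO, with medians of 0.011 and 0.025. The 27 factors for complex III and IV assembly had 15 above 0 in both, with medians of 0.013 and 0.014. For the cytochrome c list, 1 of 2 genes was above 0 in HET and in KO.

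The promoters of the nuclear genes were read from the RefSeq table of GRCm38.p6, from 250 bases before to 50 after each gene start, and 76 of the 92 genes had an entry. The cores of motifs bound by factors known for mitochondrial genes were searched on both strands. The NRF1 core GCGCATGC was in 15.8% of these promoters, 5.62% of those of 11285 tested genes and 3.05% of all 27025. The YY1 core AAGATGGC was in 14.5%, 4.73% and 3.19%, the core site of estrogen-related receptors AAGGTCA in 10.5%, 4.01% and 5.38%, and the GABPA core CCGGAAG in 23.7%, 18.0% and 9.93%. At least 1 of the 4 was in 38 of 76 promoters, and in 28.8% of those of tested genes. These are letter matches, and no binding was measured.

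Motif content can be set beside the split in HET3 and KO3. The NRF1 core was in 4 of 29 promoters of genes above and 3 of 24 of genes below, the GABPA core in 6 and 5, the YY1 core in 6 and 4, and the estrogen-related receptor site in 2 and 3. Atp5k and Atp5l, which encode the small e and g subunits of the ATP synthase, each hold 3 of the 4 motifs and are shown because they carry the same motif set. They are at chr5:108434350-108434649 and chr9:44920693-44920992, both on the minus strand of GRCm38.p6 and written 5′ to 3′ on the gene's strand. Capitals mark the NRF1 core, the GABPA core and the estrogen-related receptor site on either strand, and in Atp5k forward and reverse matches of the NRF1 core overlap.
Atp5k: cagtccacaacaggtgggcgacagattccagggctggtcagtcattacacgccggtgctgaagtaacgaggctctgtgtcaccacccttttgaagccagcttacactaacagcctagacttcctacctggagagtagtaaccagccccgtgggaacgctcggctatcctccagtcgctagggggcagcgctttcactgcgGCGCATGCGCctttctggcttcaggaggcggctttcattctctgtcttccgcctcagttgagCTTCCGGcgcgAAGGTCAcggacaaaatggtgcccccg
Atp5l: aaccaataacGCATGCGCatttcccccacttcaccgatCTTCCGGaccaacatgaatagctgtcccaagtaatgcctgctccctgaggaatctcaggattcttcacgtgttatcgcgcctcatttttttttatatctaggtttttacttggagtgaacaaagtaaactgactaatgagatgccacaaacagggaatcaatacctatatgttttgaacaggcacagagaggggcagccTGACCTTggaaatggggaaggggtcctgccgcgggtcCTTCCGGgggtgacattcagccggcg

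The values of Atp5k and Atp5l differed in HET3 and KO3. Atp5k was at 1676, 1536 and 1475 in WT, 1742, 1552 and 1175 in HET, and 1824, 1355 and 1431 in KO, with differences of -0.40 and -0.12 from the other libraries. Atp5l was at 3692, 4340 and 3887 in WT, 3852, 4136 and 5663 in HET, and 4042, 3652 and 5127 in KO, with differences of 0.54 and 0.40. HET3 was lowest for Atp5k and highest for Atp5l, while KO3 was within the range of the others for Atp5k and above them for Atp5l.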

How the data were processed

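RNA-seq of the striatum was analysed in 9 libraries (3 WT, 3 HET and 3 KO mice), grouped by the labels. The authors estimated transcript abundance with Salmon 0.9.1 on GRCm38 with GC bias correction, summed it per gene and divided by DESeq2 1.19.11 size factors. The annotation release is not given in the sources used here. The deposited signal is therefore a normalized count that is not whole, and depth, counting intervals and a count test could not be had from it. Reads of near-identical or overlapping genes are divided by estimation, so such genes are uncertain.

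Values were filtered (at least 10 in at least 3 libraries, 14239 of 15464 genes) and tested as log2(value + 1) with limma 3.58.1 in R 4.3.3 (trended empirical Bayes, genotype only, all 9 libraries), with Benjamini-Hochberg adjustment over all genes tested at 0.05. The script was tested on simulated data. Single genes were also tested by exact permutation over mice (smallest p 0.1). Lengths are those of the principal transcript of each gene in GENCODE for GRCm38, and 7 rows without a gene symbol were kept in the fit. Figures were drawn with matplotlib 3.10.9.

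The members and lists were chosen with earlier results of these data known. Named genes were every mitochondrially encoded gene, the highest and lowest nuclear subunit per kb of each complex, fixed isoform pairs, the 3 nuclear genes and the 1 mitochondrially encoded gene with the smallest p per comparison, and the 5 with the largest SD. Others were named after their values were seen. Deviations from the group means correlated between same-numbered HET and KO libraries (r of 0.515, 0.281 and 0.506). For WT with KO r was 0.243, -0.221 and 0.0244, and for WT with HET 0.319, -0.0142 and 0.00538. Such deviations cancel out within a genotype, so the shift shared by HET3 and KO3 also raises r for the other same-numbered libraries. Libraries of different number were not compared, so a pairing by number is not shown, and the labels give none.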

Additional observations from a re-analysis of the deposited data

How the results depend on the processing

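The count of genes past an adjusted p of 0.05 was 0 in each comparison under all alternatives run: pseudocounts of 0.5 and 5, no filter or a filter at 50, equal totals with and without the mitochondrially encoded genes, quantile normalization, no variance trend, only the compared genotypes, the replicate block, and each library left out. The same held without both HET3 and KO3 and under alternatives chosen after seeing the data, which were array weights and removal of each library's trend with transcript length and GC content. At an unadjusted p under 0.05 the counts in HET against WT, KO against WT and KO against HET were 365, 310 and 318 with the replicate block, 201, 395 and 274 with array weights, and 275, 219 and 227 without HET3 and KO3. The block changed no call. Each replicate number occurs once per genotype, so the block cannot change a log2FC. The mitochondrial median of -0.22 in HET therefore stayed the same by construction.

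Leaving out single libraries gave counts of 0 throughout. The mitochondrial median then lay between -0.36 and -0.021 for HET, between -0.41 and -0.067 for KO, and between -0.29 and 0.17 for KO against HET. For the nuclear median the limits were -0.010 and 0.045, -0.040 and 0.024, and -0.077 and -0.011. For the log2 ratio of the sums they were -0.45 and -0.035, -0.35 and -0.038, and -0.20 and 0.27. HET3 and KO3 set the ends nearest to 0 for the mitochondrial median and the ratio in HET and in KO, and leaving out HET2 or KO2 turned the nuclear median in HET (-0.010) or in KO (0.024). The 12 log2FC named for the smallest p kept their sign in every such fit, while those of Ndufb5, Ndufb4 and Atp5mpl in HET turned from below to above 0 without HET3 and KO3.

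Quantile normalization moved the mitochondrial medians to -0.097 in HET and -0.038 in KO. That of KO against HET was 0.010 with equal totals and 0.065 with the length and GC trend removed. The cause of these shifts was not tested. Depth is unknown, so counting error cannot be set beside the spread between mice.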
